A study of Saccharomyces cerevisiae with 8 samples.

Results

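The transcripts of budding yeast cells lacking SUB1 were compared with those of wild-type cells 1 h after the DNA-damaging agent 4NQO (4-nitroquinoline 1-oxide) was added. The comparison consisted of the 4 arrays of the series, out of 8, whose labels name both strains and 4NQO, and these were 2 independent experiments, each with an original and a dye-swapped array. Wild-type cells of strain yPH500 and sub1Δ cells had been grown in YPD at 30 °C to an OD600 of 1. One aliquot was taken at that point as the untreated sample, and 4NQO was then added at 1 µg/µl for 1 h. The labels do not say how the deletion was made or from how many clones the cells came. Each array carried RNA of both strains from the same condition, so every value is a ratio between strains. No array set treated against untreated cells, and no untreated sample had the added hour of growth, so an effect of 4NQO and of the added hour cannot be told apart.

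Sub1 is the yeast relative of the human transcriptional coactivator PC4. It binds single-stranded DNA, acts with TFIIB and RNA polymerase II at promoters, and has been linked to elongation, to termination at mRNA 3' ends, and to resistance to oxidative DNA damage. Inside the cell 4NQO is converted to metabolites that form bulky adducts on purines, which are removed by nucleotide excision repair, and it also gives rise to reactive oxygen species.

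The spotted arrays held 6216 spots, of which 3344 were annotated with 1 gene. Spots of the same gene were averaged, which left 5999 features, and 2194 of these (1242 of them named genes) had a value on all 4 arrays with 4NQO and were tested. The arrays differed in completeness, with 266 and 1493 spots without a value in experiment 1 (original and dye-swapped array) and 988 and 3234 in experiment 2. After every array was turned to sub1Δ over wild type, the array medians over all spots were -0.14 and -0.49 (log2) in experiment 1 and -0.54 and -0.66 in experiment 2, so the typical spot read lower in the mutant on every array. Pearson's r over the 2194 features was 0.34 and 0.35 between the arrays of a dye-swap pair, which carry the same RNA, and between 0.17 and 0.40 for arrays of different experiments. Features share each array's labelling and normalisation and are not independent. The SUB1 gene itself had no spot annotated to it alone, so the deletion could not be checked on the arrays. Its chromosomal neighbour CCS1 had 3 values with 4NQO, 1.79 and -2.74 in experiment 1 and 0.69 in experiment 2, and YET2 on its other side had no spot of its own.

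With 4NQO, 199 features were higher and 229 were lower in sub1Δ than in wild type, at an adjusted p under 0.05 in limma's moderated test of the mean log2 ratio of the 2 experiments against 0. These 428 were 19.5% of the features tested, with 9.07% higher and 10.4% lower. At an unadjusted p under 0.05 in the same test were 822 of the 2194. Among the 1242 named genes 107 rose (8.62%) and 112 fell (9.02%). Genes for ribosomal proteins, proteasome subunits, sterol synthesis, glycolysis and translation factors were common among those that rose. Among the lists described below, that of sporulation genes had the most lower calls, 6 of 12 tested. Those of drug transporters and of trehalose and glycogen genes held fewer (2 of 10 and 2 of 4). None of these lower calls remained after centring. The smallest change called was 1.63 on the log2 scale, and 265 of the called features (138 higher, 127 lower) differed by more than 4-fold. The median of all tested features was -0.56 (log2). When each array was instead centred on its own median, the median of the tested features became -0.11, and 212 features were called (9.66%), 195 of them higher (8.89%) and 17 lower (0.775%). A lower value in what follows therefore has to be read against that shared shift, and the genes that stayed lower after centring are named below. The number of calls also depended on which arrays entered the fit. Without the dye-swapped array of experiment 1 limma called none of 2663 features (smallest adjusted p 0.086, with 647 at an unadjusted p under 0.05). Without that of experiment 2 it called none of 3917 (smallest 0.13, 1006 unadjusted). Without the untreated arrays in the fit it called 94 of the 2194 (4.28%), 51 higher (2.32%) and 43 lower (1.96%). The untreated aliquot was taken from a culture that then received 4NQO, and with the experiment as a block shared by both conditions limma called no feature either (smallest adjusted p 0.10, 677 unadjusted). Group medians below are also given for 1 experiment alone, or without 1 dye-swapped array, where that moved them by more than 1.5 times or across 0. The median of all features with the values needed was -0.37 in experiment 1 alone (4503 features) and -0.72 in experiment 2 alone (2722). It was -0.32 and -0.48 without the dye-swapped array of experiment 1 or 2 (2663 and 3917 features). The group medians cover only list members among the 2194.

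**Figure D1:**
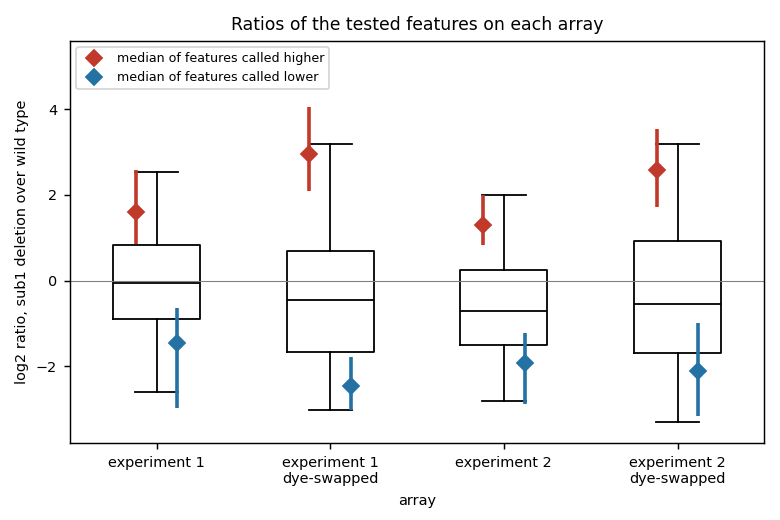
Log2 ratio of sub1Δ over wild type (vertical axis) for the 2194 tested features on each of the 4 arrays with 4NQO. Boxes show the median and quartiles and whiskers the 5th and 95th percentiles; diamonds and bars give the median and quartiles of the features called higher (red) or lower (blue). The features called higher had medians of 1.60 and 2.96 in experiment 1 and 1.31 and 2.58 in experiment 2, larger on the dye-swapped array in each experiment.

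The features called higher had median ratios of 1.60 and 2.96 on the original and dye-swapped arrays of experiment 1 and of 1.31 and 2.58 on those of experiment 2, as the box plot of ratios by array shows. Those called lower had medians of -1.46 and -2.45 in experiment 1 and of -1.91 and -2.11 in experiment 2. Both groups were thus farther from 0 on the dye-swapped arrays. Of the 428 called features, 339 had the same sign on all 4 arrays (178 higher, 161 lower). Among all 2194 tested features 846 did, 13.2% positive and 25.4% negative throughout. The calls were made on the mean of these same values, which favours such agreement. For 110 of the 428, 1 array held over 50% of the summed absolute ratio. Across the 2194 features the mean ratios of the 2 experiments correlated with a Pearson's r of 0.51, given here as a description, since the features share their arrays.

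**Figure D2:**
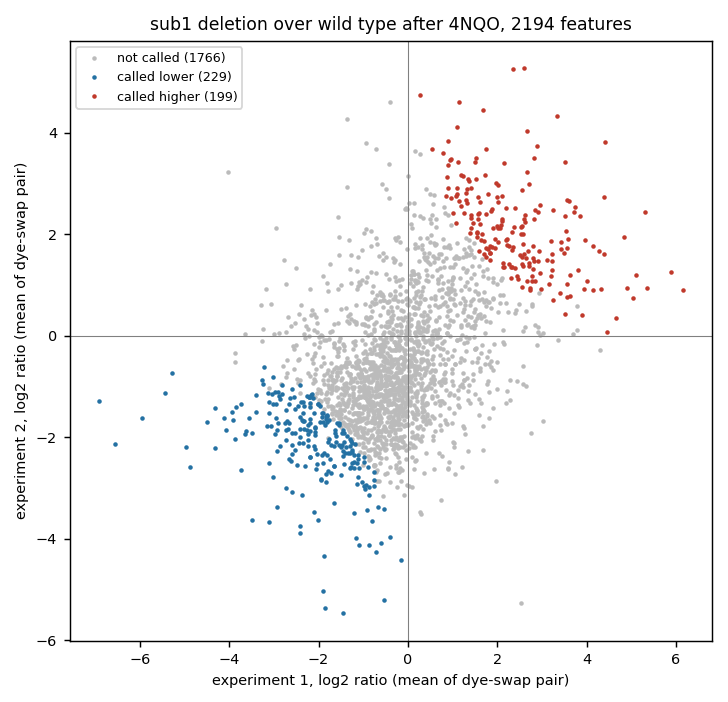
Mean log2 ratio of the dye-swap pair in experiment 1 (horizontal axis) and experiment 2 (vertical axis) for the 2194 tested features. Red points are the 199 features called higher in sub1Δ, blue points the 229 called lower and grey points the 1766 not called; the bulk of the grey points lies below 0 in experiment 2.

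The scatter of the 2 experiments shows the called features at both ends of the diagonal and the uncalled ones spread around a centre below 0. Named genes that stayed farthest from 0 on every array were found by ranking on the array value nearest to 0. In the sentences below, array values are log2 ratios in the order experiment 1, its dye swap, experiment 2, its dye swap, and each mean is given ± SD of the 2 experiments (n = 2) with limma's adjusted p over all features tested.

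URA5, which encodes the main orotate phosphoribosyltransferase of pyrimidine synthesis, stood first with 3.20, 3.45, 3.20 and 5.48, a mean of 3.83 ± 0.72 (14.2-fold, adjusted p = 0.0032). CYB5, the cytochrome b5 that passes electrons to sterol and lipid-modifying enzymes, gave 2.36, 2.99, 2.82 and 5.25, a mean of 3.35 ± 0.96 (10.2-fold, adjusted p = 0.0032). GPT2, a glycerol-3-phosphate acyltransferase at the start of glycerolipid synthesis, gave 2.67, 2.96, 2.25 and 4.75 and averaged 3.15 ± 0.49 (adjusted p = 0.0044). All 3 genes had their highest value on the dye-swapped array of experiment 2, and none came closer to 0 than 2.25 on any array. BGL2, an abundant glucanase of the cell wall, read 2.11, 3.67, 3.54 and 3.95 (mean 3.32 ± 0.60, adjusted p = 0.0058). LEU4, the enzyme that commits carbon to leucine synthesis, read 1.89, 2.16, 1.83 and 4.12 (mean 2.50 ± 0.67, adjusted p = 0.010). SNU13, an RNA-binding protein of both the splicing and the nucleolar RNA machinery, read 3.63, 2.18, 1.66 and 3.23 (mean 2.67 ± 0.32, adjusted p = 0.0078). The remaining 6 of the 12 genes highest by this ranking were ERG28, ERG25, YPL216W, RPS26A, the mitochondrial acyl carrier protein gene ACP1 and the alpha-factor gene MF(ALPHA)2, with means between 2.19 (RPS26A) and 3.12 (YPL216W). MF(ALPHA)2 gave 2.37, 1.55, 1.71 and 4.32, while the other alpha-factor gene, MF(ALPHA)1, gave 3.30, -0.36, 0.48 and -0.54 and was not called (mean 0.72 ± 1.06, adjusted p = 0.38).

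At the other end stood BLI1, a subunit of the endosomal BLOC-1 complex, with -4.80, -2.18, -5.21 and -2.06 and a mean of -3.56 ± 0.10 (11.8-fold lower, adjusted p = 0.0032). Its 2 experiments gave nearly the same mean, although the dye-swapped array read less negative than the original in both. YGL108C gave -2.28, -2.40, -1.77 and -2.46 (mean -2.23 ± 0.16, adjusted p = 0.019). BNA4, an enzyme of NAD synthesis from tryptophan, gave -1.70, -2.16, -2.51 and -2.18 (mean -2.14 ± 0.29, adjusted p = 0.017). These 2 genes varied by less than 1 log2 unit over the 4 arrays. GIP1, a sporulation-specific partner of the phosphatase Glc7, followed with -3.30, -3.97, -1.67 and -2.21 (mean -2.79 ± 1.20, adjusted p = 0.014). NTH2, a trehalase, read -3.33, -2.58, -1.60 and -1.64 (mean -2.29 ± 0.95, adjusted p = 0.015), and REI1, a factor of cytoplasmic large-subunit maturation, read -3.24, -2.61, -1.52 and -2.21 (mean -2.39 ± 0.75, adjusted p = 0.013). In these 3 genes experiment 1 lay below experiment 2 on both arrays. The other 6 of the 12 were YOL163W, YKR070W, the vacuolar sorting receptor gene PEP1, the histone acetyltransferase gene SAS3, the yapsin-family protease gene YPS5 and PRY3, with means between -1.69 (PRY3) and -2.86 (YOL163W).

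**Figure D3:**
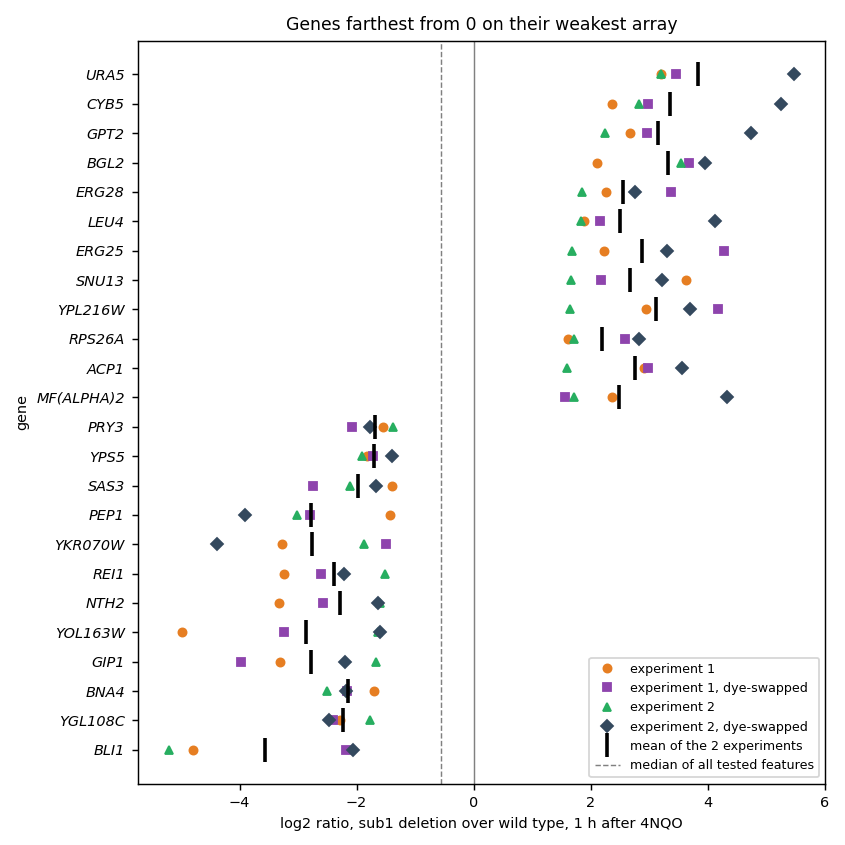
Log2 ratio of sub1Δ over wild type (horizontal axis) on each of the 4 arrays for the 12 named genes called higher and the 12 called lower whose array value nearest to 0 was largest. Symbols are arrays, black ticks the mean of the 2 experiments and the dashed line the median of all tested features at -0.56. URA5 stays at or above 3.20 on every array and BLI1 at or below -2.06, whereas PRY3 lies between -1.38 and -2.07.

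The plot shows these 24 genes, which by the way they were chosen lie clear of 0 on every array. The lower set lies nearer to the dashed median line, which is itself below 0. Of the named genes that fell, 5 also fell when array medians were centred, namely BLI1, PEP1, CKS1, DAM1 and WHI2. PEP1, the sorting receptor for carboxypeptidase Y, gave -1.42, -2.79, -3.02 and -3.90 (mean -2.79 ± 0.96, adjusted p = 0.0078). CKS1, a small subunit of the cyclin-dependent kinase complex, gave -3.71, -1.11, -0.34 and -7.43 (mean -3.15 ± 1.05, adjusted p = 0.0056). DAM1, a subunit of the ring that couples kinetochores to microtubules, gave -3.13, -0.64, -1.43 and -7.27 (mean -3.12 ± 1.74, adjusted p = 0.0071). In both cell-division genes the dye-swapped array of experiment 2 held the largest value by far. WHI2, a regulator of the general stress response, read 0.20, -5.17, -0.28 and -4.81 (mean -2.51 ± 0.04, adjusted p = 0.011), close to 0 on both original arrays and far below it on both dye swaps. BLI1 and PEP1 were the members of this set whose values stayed more than 1 log2 unit below 0 on all 4 arrays.

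Cytosolic ribosomal protein genes formed the largest group of genes that rose. Of 19 tested genes for the small subunit, which decodes mRNA, 15 were higher, none was lower and the median log2 ratio was 1.87, against 9.07% higher and a median of -0.56 over all features. Of 16 for the large subunit, which forms peptide bonds, 8 were higher and 1 lower (RPL7B), with a median of 1.66. In the small-subunit group, 17 of 19 genes were positive on all 4 arrays, against 13.2% of all tested features. The group median was 1.11, 2.59, 1.23 and 2.09. The large-subunit median was 1.58, 2.60, 0.75 and 1.48, so both group medians were above 0 on every array. RPS26A was the most even, at 1.62, 2.59, 1.71 and 2.83 (mean 2.19 ± 0.12, adjusted p = 0.015). RPS22A read 1.84, 6.72, 1.23 and 2.11 (mean 2.98 ± 1.85, adjusted p = 0.0081) and RPL28 read 1.60, 8.07, 0.81 and 3.08 (mean 3.39 ± 2.04, adjusted p = 0.0055). Both means leaned on the dye-swapped array of experiment 1. RPL10, a late-joining protein of the large subunit, gave 4.04, 7.74, 1.00 and 1.51 (mean 3.57 ± 3.28, adjusted p = 0.0085), with experiment 1 above experiment 2 throughout. RPS25B and RPS1A averaged 3.005 and 2.35, and RPL16B and RPL11A 2.30 and 2.53. RPL7B went the other way, and its arrays disagreed: 3.27, -7.64, -0.44 and -2.22 (mean -1.76 ± 0.61, adjusted p = 0.037). Many of these genes have a near-identical copy that can hybridise to the same spot, so the members are not independent and the split between copies is uncertain. Without the dye-swapped array of experiment 1 the group medians were 1.76 and 1.37, and without that of experiment 2 they were 1.64 and 1.34, while no member was called. Centred on array medians, 15 small-subunit and 8 large-subunit genes were again higher, with medians of 2.33 and 2.118.

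Other parts of the translation machinery moved the same way in part. Of 14 tested initiation and elongation factor genes, 5 rose and none fell (median 1.20). SUI1, which encodes the initiation factor eIF1 that guards start codon choice, was even at 2.42, 2.94, 1.15 and 2.18 (mean 2.17 ± 0.72, adjusted p = 0.016). TIF11 (eIF1A) averaged 2.26 ± 1.37, RPG1 (an eIF3 subunit) 2.002 ± 0.59 and ANB1 (the eIF5A form of low-oxygen growth) 2.02 ± 0.15. All 4 array values of SUI1, TIF11 and ANB1 were positive, whereas RPG1 had one at -0.24. Among 7 tested aminoacyl-tRNA synthetase genes 3 rose and 1 fell (median 0.99). FRS1, a phenylalanyl-tRNA synthetase subunit, read 1.48, 1.59, 2.83 and 3.35 (mean 2.31 ± 1.10, adjusted p = 0.015), GRS1 averaged 2.16 ± 0.82, and ARC1, a tRNA-binding cofactor of these enzymes, averaged 2.01 ± 0.45. The one that fell, the isoleucyl enzyme gene ILS1, read -0.79, -0.28, -0.24 and -10.16, so its mean of -2.87 ± 3.30 (adjusted p = 0.021) rested on 1 array. The synthetase median was 1.55 in experiment 1 and 0.20 in experiment 2, and the initiation and elongation factor median was 0.59 in experiment 2. By contrast, of 33 tested genes for ribosome biogenesis 1 rose and 2 fell (median -0.32), of 22 for mitochondrial ribosomal proteins none rose and 3 fell (median -0.35), and of 11 for RNA polymerase subunits 1 rose and none fell (median 0.13). The polymerase median was -0.27 in experiment 1 and -0.28 in experiment 2 taken alone, so its sign is not settled. The biogenesis and mitochondrial medians were -0.20 and -0.01 in experiment 1, and the latter was -0.16 without its dye-swapped array. The polymerase gene was RPA190, the largest subunit of RNA polymerase I, at 2.48, 1.54, 2.68 and 1.04 (mean 1.94 ± 0.11, adjusted p = 0.028).

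Sterol synthesis was the other group with most of its tested genes higher. Of 10 tested genes for ergosterol synthesis and sterol binding, 6 rose and 1 fell, with a median of 1.91. ERG25, the sterol C-4 methyl oxidase, gave 2.23, 4.27, 1.68 and 3.30 (mean 2.87 ± 0.54, adjusted p = 0.0071). ERG28, the scaffold of the same demethylation complex, gave 2.26, 3.38, 1.84 and 2.75 (mean 2.56 ± 0.37, adjusted p = 0.0086). CYB5 is given above, and the genes of the late enzymes ERG3 and ERG2 averaged 2.06 ± 0.70 and 2.003 ± 0.29. These 5 genes were positive on all 4 arrays. HES1, an oxysterol-binding protein gene, was called lower, but its array values were -0.18, -10.67, -1.22 and -1.04, so its mean of -3.28 ± 3.04 (adjusted p = 0.013) came mainly from 1 array. Without the dye-swapped array of experiment 1 the median of the 10 genes was 1.07, and in experiment 2 alone it was 1.37. Neighbouring lipid genes differed among themselves. Of 12 for fatty acid, phospholipid and glycerolipid synthesis 2 rose (GPT2 and the fatty acid elongase gene ELO1, mean 2.30 ± 0.71) and none fell (median -0.79, but 0.07 without the dye-swapped array of experiment 1). Of 6 for sphingolipid synthesis none rose and 2 fell (median -0.40, and -1.13 in experiment 2 alone), and AUR1, the inositol phosphorylceramide synthase gene, was negative on all arrays at -3.69, -2.64, -1.07 and -2.47 (mean -2.46 ± 0.99, adjusted p = 0.012). The second was CSG2, a subunit of the enzyme that adds mannose to these lipids, at -1.86 ± 0.66 (adjusted p = 0.031).

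Proteasome genes rose in both parts of the particle. Of 10 tested genes for the regulatory particle, which recognises and unfolds ubiquitinated proteins, and its activator Rpn4, 5 rose and none fell (median 1.69). Of 7 for the proteolytic core and its assembly, 2 rose and 1 fell (median 1.29). RPN5, a lid subunit, gave 2.75, 1.44, 0.74 and 3.86 (mean 2.20 ± 0.15, adjusted p = 0.015), and the lid subunit gene RPN6 gave 0.73, 2.25, 1.41 and 5.43 (mean 2.46 ± 1.37, adjusted p = 0.014). RPN10, a ubiquitin receptor, averaged 2.14 ± 0.07 and RPT2, an ATPase of the base, 1.75 ± 0.06. In the core, SCL1 read 1.02, 4.10, 1.49 and 2.86 (mean 2.37 ± 0.27, adjusted p = 0.013) and PRE5 read 0.42, 2.95, 2.57 and 6.34 (mean 3.07 ± 1.96, adjusted p = 0.0085), while PRE6 was not called (mean 1.34 ± 0.56, adjusted p = 0.099). UMP1, the chaperone of core assembly, moved the other way at -0.67, -3.04, -2.28 and -1.26 (mean -1.81 ± 0.06, adjusted p = 0.046) and was not called after centring. Without the dye-swapped array of experiment 2, which held the highest regulatory-particle median (3.10), the 2 group medians were 1.03 and 0.56, and in experiment 1 alone the regulatory-particle median was 1.12 with no gene called. Of 14 tested genes of the ubiquitin and SUMO pathway limma called none (median -0.66, or -0.30 in experiment 1 alone and -0.27 without its dye-swapped array). At an unadjusted p under 0.05 were 3 of them, against 822 of all 2194 tested features.

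Energy metabolism divided by pathway. Of 16 tested genes for glycolysis, gluconeogenesis and fermentation, 6 rose and none fell (median 1.60). The glyceraldehyde-3-phosphate dehydrogenase genes TDH1, TDH2 and TDH3 averaged 2.64 ± 1.28, 2.28 ± 1.79 and 1.95 ± 1.46 (adjusted p = 0.013, 0.021 and 0.034). They were positive on all arrays, but each had 1 value above 5 on the dye-swapped array of experiment 1, and the 3 are close paralogs whose spots cannot be taken as independent. ADH3, the mitochondrial alcohol dehydrogenase gene, read 2.71, 0.13, 2.25 and 2.53 (mean 1.91 ± 0.69, adjusted p = 0.029). Without the dye-swapped array of experiment 1 the median of the glycolytic genes was 0.86, without that of experiment 2 it was 1.01, and in experiment 2 alone it was 1.00. Among 29 tested genes of the TCA cycle and respiration 2 rose and 3 fell, and the median of -0.09 had no settled sign (0.10 in experiment 1 and -0.22 in experiment 2 alone, 0.17 and -0.22 without their dye-swapped arrays). RIP1, the Rieske iron-sulfur protein gene, averaged 2.29 ± 0.72 (adjusted p = 0.015) and SCO1, a copper chaperone gene for cytochrome oxidase, averaged -2.31 ± 1.12 (adjusted p = 0.017). Trehalose and glycogen genes lay lower, with 2 of 4 tested called lower and none higher (median -1.80, or -1.02 in experiment 1 alone). They were NTH2 and GAC1, a Glc7 partner acting on glycogen synthase, the latter at -1.48, 0.27, -3.98 and -4.18 (mean -2.34 ± 2.46, adjusted p = 0.027). TPS1, which makes trehalose-6-phosphate, averaged -1.31 ± 0.19 and was not called (adjusted p = 0.11). In glucose sensing and hexose transport 2 of 8 fell and none rose (median -1.43), and GPR1, the glucose receptor gene, read -2.06, -2.32, -2.80 and -0.93 (mean -2.03 ± 0.23, adjusted p = 0.029). The hexose transporter gene HXT15 averaged -1.83 ± 0.74. Neither sugar group kept a lower call after centring.

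**Figure D4:**
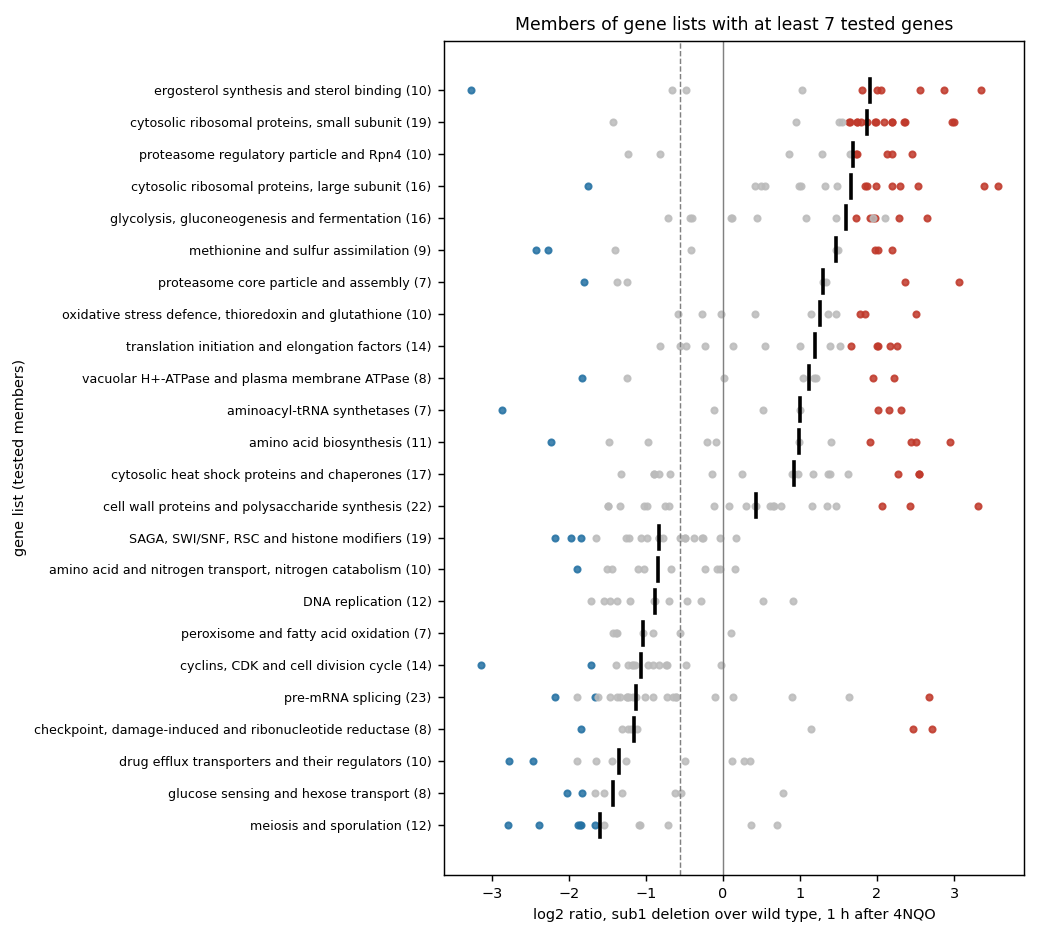
Mean log2 ratio of the 2 experiments (horizontal axis) for each tested member of 24 gene lists with at least 7 tested genes (vertical axis, number tested in brackets), the 14 of highest and 10 of lowest median. Each point is a gene, red if called higher, blue if called lower and grey if not called; black bars are list medians, the solid line is 0 and the dashed line the median of all tested features. The small-subunit ribosomal list reaches a median of 1.87 and the meiosis and sporulation list one of -1.60.

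Genes of meiosis and sporulation, programs that haploid cells growing in rich medium do not run, were the group with most lower calls. Of 12 tested, 6 fell and none rose, with a median of -1.60, and 9 were negative on all 4 arrays, against 25.4% of all tested features. Beside GIP1 these were ADY3, a protein of the leading edge of the forming spore membrane, which read -0.95, -2.95, -2.73 and -2.93 (mean -2.39 ± 0.62, adjusted p = 0.014), and the sporulation septin gene SPR3 (mean -1.86 ± 0.91, adjusted p = 0.037). SPO19 averaged -1.89 ± 0.88, the meiotic kinase gene IME2 -1.85 ± 1.07 and MPC54 -1.66 ± 0.28. After centring none of the 12 was called and the median was -1.15, against -0.11 for all features. Array ratios do not show how strongly a gene is expressed, so it is not known whether these spots were near background.

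Yeast cells export many toxic compounds, 4NQO among them, through membrane transporters. Of 10 tested transporter genes and their regulators 2 fell and none rose (median -1.35, or -0.64 in experiment 1 alone). QDR3, an exporter of the major facilitator family, was negative throughout at -4.23, -3.59, -1.93 and -1.37 (mean -2.78 ± 1.60, adjusted p = 0.013). AQR1, of the same family, read -3.44, 0.14, -1.76 and -4.84 (mean -2.47 ± 1.17, adjusted p = 0.013). FLR1, another member, read -3.06, -2.61, -1.28 and -0.61, all negative but not called (mean -1.89 ± 1.34, adjusted p = 0.055). After centring none of the 10 was called. The ABC transporter gene SNQ2, known for conferring resistance to 4NQO, had values on 2 arrays only, 3.57 and -1.65, both from experiment 1 and of opposite sign, and was not tested. PDR5 had 1 value (-3.64) and ATR1 had 2 (0.97 and -1.75).

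DNA damage response genes were sparsely covered. Of 8 tested genes of the checkpoint, damage-induced and ribonucleotide reductase list 2 rose and 1 fell (median -1.15). That median was -0.28 in experiment 1 alone, and -0.66 and -0.64 without the dye-swapped array of experiment 1 or 2. Those that rose encode the small subunits of ribonucleotide reductase, the enzyme that makes DNA precursors. RNR4 read 0.31, 4.78, 2.39 and 3.35 (mean 2.71 ± 0.23, adjusted p = 0.0078), and RNR2 read 1.09, 3.71, 1.59 and 3.47 (mean 2.46 ± 0.09, adjusted p = 0.010). Both were positive on every array, higher on the dye swaps, and called also after centring and without the untreated arrays. Without 4NQO, RNR2 averaged 0.78 and 0.54 in the 2 experiments and RNR4 1.47 and 0.38. The gene that fell, the checkpoint kinase gene CHK1, read -1.12, -2.09, 0.39 and -4.57 (mean -1.85 ± 0.34, adjusted p = 0.035). None of 3 tested genes for nucleotide excision repair (median -1.13), of 6 for homologous recombination and strand break repair (median -0.56), of 5 for base excision, mismatch repair and translesion synthesis (median -0.83) or of 12 for DNA replication (median -0.89) was called by limma. At an unadjusted p under 0.05 were 1, 1, 1 and 5 of them, respectively, against 822 of all 2194 tested features. In experiment 2 alone the recombination median was -0.91 and the base excision list median -0.55, the latter also -0.43 without the dye-swapped array of experiment 1. RAD2, RNR1 and RNR3 had no spot of their own.

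The lists of oxidative defence, chaperone and cell wall genes held 3 higher calls each. The shares called were 30%, 17.6% and 13.6%, against 19.5% called and 9.07% called higher over all tested features. Of 10 tested genes for oxidative stress defence 3 rose and none fell (median 1.26): TRX2, a cytosolic thioredoxin, read 2.53, 2.10, 0.59 and 2.14 (mean 1.84 ± 0.67, adjusted p = 0.037), MXR1, a methionine sulfoxide reductase, averaged 1.78 ± 0.11, and AHP1, a thioredoxin peroxidase, averaged 2.51 ± 3.04. AHP1 stood at 5.12 and 4.18 in experiment 1 but at 0.02 and 0.70 in experiment 2. SOD1 averaged 1.47 ± 1.30 and was not called (adjusted p = 0.085). Of 17 cytosolic chaperone genes 3 rose and none fell (median 0.92), with the cyclophilin gene CPR1 at 1.88, 3.18, 1.31 and 2.70 (mean 2.27 ± 0.37, adjusted p = 0.014). The Hsp70 genes SSB2 and SSA2 averaged 2.55 ± 2.06 and 2.55 ± 1.77, each higher in experiment 1 than in experiment 2. Without the dye-swapped array of experiment 2 the medians of the 2 groups were 0.73 and 0.61, and in experiment 2 alone they were 0.79 and 0.47. Of 22 cell wall genes 3 rose and none fell, these being BGL2, the mannoprotein gene CCW12 (mean 2.42 ± 2.13) and the glucanase gene EXG1 (mean 2.07 ± 0.08). The cell wall median of 0.43 was 0.07 in experiment 2 alone, and 0.20 and 0.23 without the dye-swapped array of experiment 1 or 2. The chitin synthase gene CHS2 averaged -1.49 ± 0.21 and was not called (adjusted p = 0.066).

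In amino acid synthesis 4 of 11 tested genes rose and 1 fell (median 0.99, or 0.43 in experiment 1 alone). ARG7, of arginine synthesis, read 1.92, 3.39, 1.24 and 5.23 (mean 2.94 ± 0.41, adjusted p = 0.0081), and PRO2, of proline synthesis, read -0.05, 5.30, 1.20 and 3.30 (mean 2.44 ± 0.26, adjusted p = 0.010). GLT1, the glutamate synthase gene, fell at -3.10, -2.39, -4.51 and 1.08 (mean -2.23 ± 0.73, adjusted p = 0.031) and was not called after centring. The methionine and sulfur list was mixed, with 3 of 9 higher and 2 lower (median 1.47, and 0.07 in experiment 2 alone). SAH1, which clears S-adenosylhomocysteine, averaged 2.19 ± 1.35 and MET7, which adds glutamate to folates, 2.01 ± 1.28. SUL1, a sulfate permease gene, read 0.66, -5.27, -1.08 and -4.06 (mean -2.44 ± 0.19, adjusted p = 0.013), and MHT1, a homocysteine methyltransferase gene, read -3.99, 0.34, -2.07 and -3.39 (mean -2.28 ± 0.64, adjusted p = 0.015). Each of these 2 had 1 array above 0. In pyrimidine synthesis and uptake URA5 rose, while the cytidine deaminase gene CDD1 (mean -1.86 ± 0.62) and the uracil permease gene FUR4 (mean -1.92 ± 1.57) fell, out of 6 tested. Of 8 tested genes for the proton pumps of vacuole and plasma membrane 2 rose, VMA4 (mean 2.22 ± 1.78) and VMA11 (mean 1.95 ± 1.19), and VMA2 fell (mean -1.83 ± 1.09). Their median of 1.11 came from experiment 2 (1.62), since experiment 1 alone gave -0.08, and it was 0.45 without the dye-swapped array of experiment 2.

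Genes of RNA polymerase II transcription, the process in which Sub1 acts, were tested in lists of 6 to 10 genes. With 19.5% of all tested features called, lists this small cannot show whether calls were scarce. Of 10 tested general transcription and elongation factor genes 1 fell, TAF1, the largest TFIID subunit, at -1.40, -0.49, -2.34 and -3.53 (mean -1.94 ± 1.41, adjusted p = 0.034). None of 8 Mediator genes (median -0.36, or -0.20 without the dye-swapped array of experiment 2) or of 6 for mRNA 3' end processing and export (median -0.82) was called by limma. None was at an unadjusted p under 0.05, against 822 of all 2194 tested features. Of 19 tested genes in the list of SAGA, SWI/SNF, RSC and histone modifiers 3 fell and none rose (median -0.83). SIR1 averaged -1.98 ± 0.79, ISW1 -2.18 ± 2.52 and HIR1 -1.85 ± 0.77, and none of these 3 encodes a subunit of SAGA, SWI/SNF or RSC. The list thus also holds other chromatin genes, but not the SAS3 gene given above. Of 23 splicing genes 1 rose, SNU13, and 2 fell (median -1.13, or -0.55 in experiment 1 alone): BUD13 at -4.59, 0.50, -2.57 and -2.09 (mean -2.19 ± 0.21, adjusted p = 0.015) and LUC7 at -1.04, -1.81, -1.58 and -2.24 (mean -1.67 ± 0.34, adjusted p = 0.049). None of these lower calls remained after centring. SUA7, the TFIIB gene, and IMD2, IMD3 and IMD4 of guanine nucleotide synthesis had no spot of their own. In cell division, 2 of 14 tested cyclin and kinase genes fell and none rose (median -1.06, but -0.31 in experiment 1 and -1.57 in experiment 2 alone), CKS1 and WHI5, the latter a repressor of the start of the cell cycle (mean -1.71 ± 0.26, adjusted p = 0.043). Of 26 vacuolar sorting, endosome and autophagy genes 2 rose and 3 fell (median -0.53, or -0.92 in experiment 2 alone and -0.31 without its dye-swapped array). VPS15, a kinase partner in vacuolar sorting, rose at 2.55, 4.29, 0.58 and 2.86 (mean 2.57 ± 1.20, adjusted p = 0.011), as did the SNARE gene VTI1 (mean 2.13 ± 1.74), while the retromer gene VPS35 read 0.93, -6.23, 0.07 and -2.53 (mean -1.94 ± 1.01, adjusted p = 0.033). The strain marker genes LYS2 (mean -1.48 ± 1.06, adjusted p = 0.082) and ADE2 (mean -0.25 ± 1.504, adjusted p = 0.79) were not called.

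The features called with 4NQO were also read in the untreated cells. Of the 199 called higher, 190 had both untreated means, with a median of 2.19 with 4NQO and 0.25 without, and 128 of the 190 were above 0 without 4NQO. Of the 229 called lower, 152 had both, with medians of -2.13 and -0.96, and 139 were below 0 without 4NQO. The lower calls thus lacked untreated means more often, and their figures cover only a part of them. Over all tested features the untreated array medians were -0.04 and -0.27 in experiment 1 and 0.08 and -0.15 in experiment 2. The share of all tested features on each side of 0 without 4NQO was not counted. The called features were chosen on their values with 4NQO, so a smaller untreated value is what the choice itself favours. For the small-subunit and large-subunit ribosomal protein genes the untreated medians were -0.19 and 0.00, for ergosterol genes (7 of the 10) 0.33 and for glycolytic genes (14 of the 16) 0.41. Among the lists that lay lower, the untreated median was -0.76 for meiosis and sporulation (5 of the 12) and -0.11 for drug transporters (9 of the 10). It was -0.21 for trehalose and glycogen (all 4) and 0.36 for glucose sensing and hexose transport (3 of the 8). BLI1 averaged -2.76 and -1.55 in the untreated experiments and URA5 0.79 and -0.49. The difference in strain ratio between 4NQO and untreated cells was tested for the 1654 features with all 4 means, and limma called none (smallest adjusted p 0.53, with 153 at an unadjusted p under 0.05). No gene or group can therefore be called particular to 4NQO from these arrays.

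The called genes differed in length. Genes that rose had a median length of 930 bp in the RefSeq R64 annotation, those that fell 1291.5 bp and all 1242 tested named genes 1092 bp. Without the cytosolic ribosomal protein genes, which are short, the medians were 978, 1278 and 1110 bp. Whether length or the amount of probe on the spot bears on the calls was not tested. Of 378 adjacent pairs with both genes tested, 18 were called in the same direction and 3 in opposite directions. Among all tested named genes 8.62% were called higher and 9.02% lower. Across the 378 pairs the log2 ratios correlated with a Pearson's r of 0.23, and whether position bears on the calls was not tested. Examples of pairs called in the same direction are MXR1, SAH1 and ERG28, 3 consecutive genes that all rose, and CSG2 and SCO1, which both fell. The neighbours had spots in the same print block in 4 of the 18 pairs and in 90 of all 378. For 41 genes with 2 complete spots, the 2 spots had the same sign in 33 and differed by a median of 0.73 (log2), beside a median absolute difference between the 2 experiments of 0.94 over all tested features.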

How the data were processed

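Total RNA of sub1Δ and wild-type cells was labelled with Cy3 and Cy5 and hybridised to spotted arrays of yeast open reading frames. Per the series' design text, slides were scanned with a GenePix 4000A, read with GenePix Pro, background-subtracted and normalised by LOWESS (smoothing parameter 0.33), and per the submitters' processing notes limma 2.12.0 was used. The authors deposited 1 log2 ratio of Cy3 over Cy5 per spot and array, with no intensities, and the reasons for missing spots are not given in the sources used here. Per the labels, sub1Δ was in Cy5 without a dye swap and in Cy3 with one. The signs of the original arrays were therefore turned. As deposited, the arrays of each 4NQO pair correlated at -0.26 and -0.33 over spots of all features, as opposite dyes give, so no column was taken as already turned. The direction rests on these labels.

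Spot names came from the platform annotation and were updated through RefSeq R64, which matched 3343 of the 3344 spots with 1 gene. A further 387 spots had several genes and 2485 had none, and these stayed unnamed. Spots of a gene were averaged, then the 2 arrays of a dye swap, which hold the same RNA and count as 1 value. The mean ratio was tested against 0 with limma 3.58.1 (lmFit, eBayes, 2-sided, R 4.3.3) in a fit over the whole table that also held the 2 untreated experiments, and p-values were adjusted by Benjamini-Hochberg over the 2194 features with all 4 arrays. With 2 experiments per condition, separate only as far as the labels say so, p-values rest on the spread between experiments, largely as pooled over all features. In limma this shared spread weighed as 16.8 prior degrees of freedom. A gene could therefore be called although its own 2 experiments disagreed, as were ILS1 and AHP1. The number of arrays limits the precision. The script was tested on simulated data. A description of promoter motifs was not run, since no sequences were used here.

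Members, gene lists (from textbook knowledge) and tests were chosen with earlier results of these data known. Named genes were the 12 higher and 12 lower called genes of one sign throughout the 4 arrays whose value nearest to 0 was largest, up to 4 members of smallest p per described list plus members called against its median, the named genes called lower after centring, and a set of chosen genes. Other list members named in the text were chosen after their values were seen. Alternatives were centring, scaling, spot blocks, other sets of arrays or features, the dye direction, the replicate number as a block, and leaving out each experiment.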

Additional observations from a re-analysis of the deposited data

Results flagged for a closer look

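Among the 116 genes whose array values were examined, 10 had 1 array standing far from the other 3 with 4NQO, by Dixon's test for 4 values. Chance flags about 1 in 20 such groups, and the genes share their arrays. The dye-swapped array of experiment 1 was the distant one in 6 genes: RPS22A at 6.72, TDH1 at 5.35, TDH2 at 5.45, TDH3 at 5.47, HES1 at -10.67 and CSG2 at -3.53 (log2). The dye-swapped array of experiment 2 was the distant one in 3, with LEU4 at 4.12, URA5 at 5.48 and ILS1 at -10.16. The original array of experiment 1 was the distant one for ADY3, at -0.95, nearer to 0 than the others. For HES1 and ILS1 the 3 remaining values lay between -1.22 and -0.18, so these 2 lower calls each rest on 1 array.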

How the results depend on the processing

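The number of calls depended strongly on the processing. Against 428 features (199 higher, 229 lower, median -0.56), centring array medians gave 212 (17 lower, median -0.11), centring print blocks 408 (284 higher, 124 lower, median -0.084), and scaling arrays to a common spread 157 (129 higher, 28 lower, median -0.083). The arrays with 4NQO fitted alone gave 94 (51 higher, 43 lower), as did leaving out either untreated experiment, and leaving out 4NQO experiment 1 or 2 gave 399 and 426 (166 and 174 higher, 233 and 252 lower, medians -0.72 and -0.37), in a fit where the lone experiment is assumed to vary like the untreated ones. Testing every spot on its own gave 531 of 2218 (230 higher, 301 lower). The 4 arrays taken as 4 values gave 239 (92 lower), or 220 (79 lower) with an estimated correlation of 0.0084 within pairs. There were 0 calls with only features on all 8 arrays (smallest adjusted p 0.057), with lone arrays allowed (0.17), without the sparsest array (0.13), or with swaps taken as already turned (0.23, median -0.020). At an unadjusted p under 0.05 were 542 of 1654, 1229 of 5171, 1006 of 3917 and 319 of 2194 features. Some choices were made after the data were seen: only tested features in the moderation gave 174 (91 higher, 83 lower), leaving out the dye-swapped array of experiment 1 gave 0, and centring after averaging spots gave 204 (17 lower, median -0.12). With only tested features in the moderation and spots averaged first, centring gave 254 (37 lower, median -0.12) and scaling gave 0 (median -0.092). The moderation over the whole table was chosen after both counts were known. The causes of these differences were not tested.

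Per the design text the untreated aliquot came from a culture that then received 4NQO, while the labels mark 1 experiment per condition as the replicate without saying that these share a culture. Deviations of the experiments so matched correlated at 0.10 over 1654 features. With the replicate block 0 features were called (smallest adjusted p 0.10, 677 unadjusted). The difference between conditions stayed at 0 calls with centring and with the block. Of 108 called genes examined, 44 missed the threshold after centring, 54 after scaling, 27 with print blocks centred, 75 without the untreated arrays, and 55 and 51 without experiment 1 or 2, with no change of sign. Of genes not called, ADE2 changed sign to 0.20 with centring, 0.17 with print blocks, 0.26 with scaling and 0.81 without experiment 2 (-1.32 without experiment 1), and MF(ALPHA)1 to -0.030 without experiment 1 (1.47 without experiment 2). Background correction, a filter on dim spots and a slide block were not run, since intensities and slides were not among the data used.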

Other observations

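Besides the named genes, 952 unnamed features were tested with 4NQO, of which 92 were called higher and 117 lower. The 59 gene lists held 676 of the 1242 tested named genes and 145 of the 219 called ones (86 of 107 higher, 59 of 112 lower). The lists were chosen with earlier results of these data known, so these shares are a description only. Under all 3 of the fits with deposited values, with centred arrays and with 4NQO arrays alone, 68 features were called, 51 higher and 17 lower. Among these were 2 genes picked here after their values were seen, CMD1, the calmodulin gene, and PLN1, a perilipin-like gene of lipid droplets, with means of 2.88 and 2.71 (log2).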
